A study of Saccharomyces cerevisiae with 8 samples.

Results

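GAP1 encodes the general amino acid permease of Saccharomyces cerevisiae, and its RNA was compared with that of 9 related amino acid permeases of the plasma membrane that lie outside the amplified regions. The permeases were chosen by gene name and were GAP1, AGP1, GNP1, BAP2, BAP3, TAT1, TAT2, DIP5, PUT4 and CAN1, which are 10 of the 6600 protein-coding genes counted. RNA-seq counts of 8 libraries were used, from 2 cultures of each of 4 evolved strains. The strains are ODIRA_A (DGY1735), ODIRA_B (DGY1743), Trans (DGY1726) and ComQuad (DGY1741), each 1 isolated lineage of the FY4/S288C background. They were taken after long selection in glutamine-limited chemostats, DGY1741 and DGY1743 from later samples than DGY1726 and DGY1735. By the study's account each carries extra copies of GAP1 within a different rearrangement of chromosome XI, a tandem duplication within a translocation in DGY1726, triplications by origin-dependent inverted-repeat amplification (ODIRA) in DGY1735 and DGY1743, and in DGY1741 a triplication followed by a further amplification of GAP1. DGY1726 also carries a second amplified region on chromosome V, from SAK1 to YER137C. All 4 strains carry a fluorescent reporter with a KanMX marker at the GAP1 locus. Every culture was regrown under glutamine limitation in a chemostat and treated with cycloheximide before harvest. The ancestor was not analysed here, so each comparison is between evolved strains. Copy numbers were not measured in these libraries.

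Yeast takes up amino acids through a family of permeases with overlapping substrates. Gap1 transports nearly all amino acids, whereas most relatives are more selective. When a preferred nitrogen source is plentiful, nitrogen catabolite repression keeps GAP1, PUT4, DIP5 and other genes low, and when nitrogen is short the GATA factors Gln3 and Gat1 activate them through GATA sites. Amino acids outside the cell act through the sensor Ssy1 and the factors Stp1 and Stp2, which bind CGGC-rich sites upstream of AGP1, GNP1, BAP2, BAP3, TAT1 and other permease genes. After synthesis the permeases need the chaperone Shr3 to leave the endoplasmic reticulum, and ubiquitination by Rsp5 and its adaptors leads to their removal from the membrane.

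GAP1 (YKR039W) lies on chromosome XI at 515063 to 516871 on the plus strand (R64). None of the 9 relatives lies on chromosome XI or in the amplified region of chromosome V. TAT1 (YBR069C, chromosome II, 376574 to 378433, minus strand) and BAP2 (YBR068C, chromosome II, 373861 to 375690, minus strand) are neighbours, with BAP2 downstream of TAT1. Each gene is 1 uninterrupted coding row of 1773 to 1992 bases, so that gene and coding lengths are equal. To show the letters that the 2 sets of factors are known to bind, 300 bases from 500 to 201 bases upstream of the start codon were read from the R64 reference for 5 permeases whose RNA differs in its strain pattern. They are the reference sequence and not that of the evolved strains, whose GAP1 locus carries the reporter. Capitals mark GATAA or its reverse complement in the first 3 and CGGC or its reverse complement in the last 2, on either strand and with overlapping matches counted.
GAP1 (chrXI:514563-514862, plus strand): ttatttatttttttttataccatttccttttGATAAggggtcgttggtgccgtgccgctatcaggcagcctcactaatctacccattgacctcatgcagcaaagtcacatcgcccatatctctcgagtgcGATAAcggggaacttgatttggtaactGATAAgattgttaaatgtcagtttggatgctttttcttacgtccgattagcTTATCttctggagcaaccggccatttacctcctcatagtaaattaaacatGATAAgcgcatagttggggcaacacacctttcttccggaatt
PUT4 (chrXV:988983-989282, minus strand): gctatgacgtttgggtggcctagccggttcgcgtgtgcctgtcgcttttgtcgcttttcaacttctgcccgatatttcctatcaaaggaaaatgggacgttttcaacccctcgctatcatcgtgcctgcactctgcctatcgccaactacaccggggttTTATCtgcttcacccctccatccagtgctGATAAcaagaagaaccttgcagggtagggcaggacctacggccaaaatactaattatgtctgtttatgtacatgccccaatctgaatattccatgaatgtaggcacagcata
DIP5 (chrXVI:40543-40842, plus strand): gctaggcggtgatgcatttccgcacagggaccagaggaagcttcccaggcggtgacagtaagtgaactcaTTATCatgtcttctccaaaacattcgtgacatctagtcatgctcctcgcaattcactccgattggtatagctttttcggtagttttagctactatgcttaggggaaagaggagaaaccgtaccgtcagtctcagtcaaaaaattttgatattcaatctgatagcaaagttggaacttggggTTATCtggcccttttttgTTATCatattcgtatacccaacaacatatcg
BAP2 (chrII:375891-376190, minus strand): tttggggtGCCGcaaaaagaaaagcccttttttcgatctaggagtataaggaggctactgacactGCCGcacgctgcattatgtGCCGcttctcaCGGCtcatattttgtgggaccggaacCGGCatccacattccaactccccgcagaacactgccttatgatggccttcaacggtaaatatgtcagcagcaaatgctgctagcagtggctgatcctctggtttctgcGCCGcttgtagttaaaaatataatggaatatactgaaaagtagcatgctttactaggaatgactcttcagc
TAT1 (chrII:378634-378933, minus strand): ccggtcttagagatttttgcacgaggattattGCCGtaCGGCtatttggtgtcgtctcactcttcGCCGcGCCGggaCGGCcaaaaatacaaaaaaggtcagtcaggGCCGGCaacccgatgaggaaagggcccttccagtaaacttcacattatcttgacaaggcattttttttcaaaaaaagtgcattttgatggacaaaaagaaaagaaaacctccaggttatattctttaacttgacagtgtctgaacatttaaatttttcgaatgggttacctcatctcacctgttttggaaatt

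In this window GATAA occurred 5 times for GAP1, 4 times for CAN1, 3 times for AGP1 and DIP5, 2 times for PUT4, once for TAT1 and not for GNP1, BAP2, BAP3 or TAT2. Over the same window of 6567 nuclear genes, 21.9% held at least 2 matches to GATAA and 0.442% at least 5. CGGC occurred 7 times for TAT1, 6 times for BAP2 and BAP3, 5 times for GNP1, 4 times for AGP1, 3 times for GAP1 and TAT2, 2 times for PUT4, once for CAN1 and not for DIP5. At least 5 matches to CGGC were found in 1.48% of all windows. The window and the letters searched were chosen with these sequences in view. These matches are a description of letters and not of bound sites.

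The closest pairs by nucleotide sequence were AGP1 with GNP1 (69.4% identity over 1888 aligned bases) and BAP2 with BAP3 (69.3%). GAP1 was nearest to AGP1, at 58.8%. The longest run of bases shared by any pair of permeases, printed since it limits how reads can be told apart, was 47 bases long, at 77213 to 77259 of chromosome III and 1467651 to 1467697 of chromosome IV.
AGP1 and GNP1 shared stretch: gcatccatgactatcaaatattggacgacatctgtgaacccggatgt
Reads were 50 bases long, and no stretch of 50 bases in any of the 10 genes occurred elsewhere in the reference genome.

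The 8 libraries held 9125509 to 13205947 counts of protein-coding genes. Of the 6600 genes, 5527 had a mean of at least 100 counts per library and were tested, among them 9 of the 10 permeases. Genes encoded in mitochondria took 0.053% to 0.096% of the counts in 6 libraries, but 13.2% and 19.2% in the 2 libraries of DGY1743. Levels are given as CPM, counts per 1000000 counts, on library sizes scaled by the TMM method, which offsets such a share, and their errors are the SD of 2 libraries. The 5 markers of haploid a cells (MFA1, MFA2, STE2, BAR1, STE6) summed to 301 to 811 CPM in each library. The 3 of alpha cells (MF(ALPHA)1, MF(ALPHA)2, STE3) summed to 14.0 to 28.7 CPM, so that the a set was higher in sum throughout. Single markers did not all follow. STE3 was above MFA1 and MFA2 in both libraries of DGY1726 (18.2 and 21.5 CPM) and DGY1735 (14.0 and 16.3 CPM), and above MFA2 in those of DGY1743.

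GAP1 RNA was about 2-fold higher in DGY1741 and DGY1743 than in DGY1726 and DGY1735. It reached 10727 and 11291 CPM in the libraries of DGY1726, 9468 and 13289 CPM in DGY1735, 24406 and 24210 CPM in DGY1741, and 19925 and 19167 CPM in DGY1743. The 4 libraries of DGY1741 and DGY1743 were all above the 4 of DGY1726 and DGY1735. The DGY1726 libraries lay between those of DGY1735. Both DGY1741 libraries lay above both of DGY1743, though these strains were not called different. In RNA from whole cultures, a higher level in every cell and a larger share of cells with a high level cannot be told apart. GAP1 alone took 1.11% and 1.17% of all protein-coding counts in DGY1726, 0.970% and 1.41% in DGY1735, 2.48% and 2.52% in DGY1741, and 1.84% and 1.65% in DGY1743, whose totals include the mitochondrial counts. The exact 95% binomial interval of the lowest share was 0.964% to 0.977%, which covers counting error only.

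The level of GAP1 differed among the strains (edgeR quasi-likelihood F-test, BH adjusted p = 0.00351). It was 2.21-fold higher in DGY1741 than in DGY1726 (log2 ratio 1.14 with an SE of 0.24, adjusted p = 0.00301) and 2.14-fold higher than in DGY1735 (log2 ratio 1.10, SE 0.24, adjusted p = 0.00369). In DGY1743 it was 1.78-fold higher than in DGY1726 (adjusted p = 0.0235) and 1.72-fold higher than in DGY1735 (adjusted p = 0.0337). DGY1741 and DGY1743 were not called different (log2 ratio of DGY1743 to DGY1741 of -0.31, SE 0.24, adjusted p = 0.375), nor were DGY1735 and DGY1726 (0.05, SE 0.24, adjusted p = 0.953). Both calls for DGY1741 held with each of the 8 libraries left out. The call of DGY1743 against DGY1726 was lost without any 1 library of DGY1726 or DGY1741 (adjusted p up to 0.144), and that against DGY1735 without 6 of the 8 libraries in turn, the log2 ratio falling to 0.56 without DGY1735 replicate 1 (adjusted p = 0.208).

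**Figure D1:**
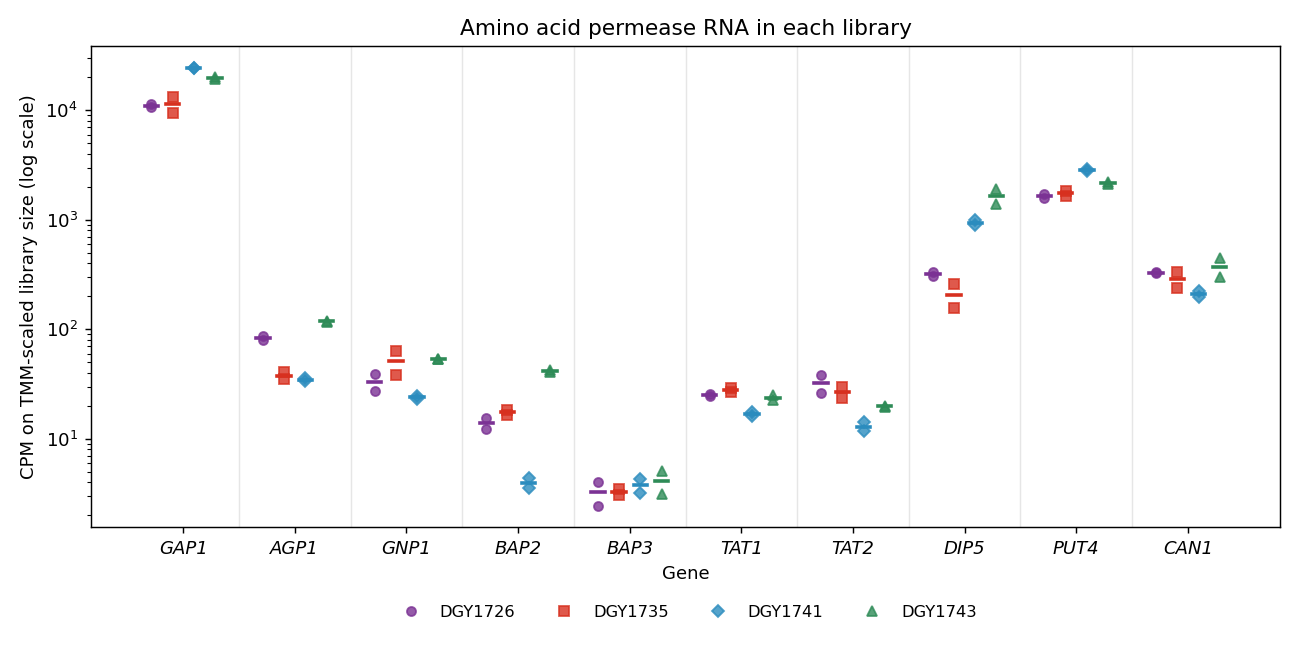
RNA of the 10 amino acid permeases in each of the 8 libraries, in CPM on TMM-scaled library sizes (log axis). Points are libraries, 2 per strain, and short bars are strain means. GAP1 lies between 9468 and 24406 CPM, PUT4 between 1570 and 2924 CPM, and BAP3 between 2.46 and 5.09 CPM.

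Among the relatives, PUT4 and DIP5 also had their 4 highest libraries in DGY1741 and DGY1743. The share of all genes with this separation was not computed. Against DGY1726, 18.9% of all genes tested were called higher in DGY1741 and 15% in DGY1743. Both are, like GAP1, known targets of nitrogen catabolite repression, and whether this bears on their levels was not tested. CAN1 and AGP1, with 4 and 3 matches to GATAA, had their lowest mean in DGY1741. PUT4 encodes the proline permease. Its level was 1570 and 1716 CPM in DGY1726, 1649 and 1845 CPM in DGY1735, 2924 and 2786 CPM in DGY1741, and 2133 and 2205 CPM in DGY1743, so that the strains stood in the same order as for GAP1 and the 4 higher libraries did not overlap the 4 lower ones. PUT4 differed among strains (adjusted p = 0.0022) and was 1.74-fold higher in DGY1741 than in DGY1726 (log2 ratio 0.80 with an SE of 0.14, adjusted p = 0.00107) and 1.63-fold higher than in DGY1735 (adjusted p = 0.00216). The 1.32-fold difference between DGY1743 and DGY1726 was not called (adjusted p = 0.0547), whereas DESeq2 called it (adjusted p = 0.00525). DGY1741 against DGY1743 was likewise not called by edgeR (adjusted p = 0.0659) and called by DESeq2 (adjusted p = 0.00468), as was DGY1743 against DGY1735 (adjusted p = 0.134 and 0.0482).

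DIP5, which encodes the permease of glutamate and aspartate, differed over a wider range. Its level was 330 and 309 CPM in DGY1726, 155 and 261 CPM in DGY1735, 994 and 893 CPM in DGY1741, and 1897 and 1398 CPM in DGY1743. No 2 strains overlapped, and the order differed from that of GAP1 at both ends, with DGY1743 highest and DGY1735 lowest. Against DGY1735, DIP5 was 7.91-fold higher in DGY1743 (log2 ratio 2.98, SE 0.23, adjusted p = 2.14e-06) and 4.53-fold higher in DGY1741 (adjusted p = 1.09e-05). Against DGY1726, it was 5.15-fold and 2.95-fold higher (adjusted p = 1.71e-05 and 0.000165). The step from DGY1741 to DGY1743 was smaller (1.75-fold, adjusted p = 0.017) and its call was lost without either library of DGY1741 or without DGY1743 replicate 1, with adjusted p up to 0.128 and a log2 ratio of 0.57 without the last. DGY1735 and DGY1726 were not called different (adjusted p = 0.211), but were so by DESeq2 (adjusted p = 0.0486), and without DGY1735 replicate 2 (log2 ratio -1.04, adjusted p = 0.00499).

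Of the other permeases, AGP1, GNP1, BAP2, TAT1, TAT2 and CAN1 had their lowest mean in DGY1741. The mean of GAP1 was highest there, but was not called different from that in DGY1743. Among all genes tested, 19.5% were called lower in DGY1741 than in DGY1726, and 17.8% lower than in DGY1735. The share of all genes with their lowest mean in DGY1741 was not computed. AGP1, a low-affinity permease of broad substrate range, was at 87.0 and 79.5 CPM in DGY1726, 40.5 and 35.1 CPM in DGY1735, 33.5 and 35.9 CPM in DGY1741, and 117 and 118 CPM in DGY1743. It was high in DGY1743 and DGY1726 and low in the other two strains, with no overlap between the high and the low libraries. AGP1 was 3.39-fold higher in DGY1743 than in DGY1741 (log2 ratio 1.76, SE 0.12, adjusted p = 6.24e-07) and 2.40-fold lower in DGY1741 than in DGY1726 (adjusted p = 1.1e-05). It was the single permease called between DGY1735 and DGY1726, at 2.21-fold lower in DGY1735 (log2 ratio -1.14, SE 0.12, adjusted p = 0.000259). The 1.42-fold difference between DGY1743 and DGY1726 (adjusted p = 0.00853) lost its call without DGY1726 replicate 2 (adjusted p = 0.0657).

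GNP1, the high-affinity glutamine permease and the nearest relative of AGP1 in sequence, was at 39.2 and 27.4 CPM in DGY1726, 63.5 and 38.1 CPM in DGY1735, 24.4 and 23.3 CPM in DGY1741, and 53.3 and 53.9 CPM in DGY1743. The DGY1741 libraries were the lowest, those of DGY1735 spanned those of DGY1743, and the DGY1726 and DGY1735 libraries overlapped. GNP1 was 2.25-fold higher in DGY1743 than in DGY1741 (adjusted p = 0.00275) and 2.12-fold lower in DGY1741 than in DGY1735 (adjusted p = 0.0027). Its difference between DGY1743 and DGY1726 (1.61-fold, adjusted p = 0.0384) lost its call in 5 of the 8 leave-outs, each of DGY1726 replicate 2 and the libraries of DGY1741 and DGY1743, with a log2 ratio of 0.46 without the first (adjusted p = 0.211). Without DGY1735 replicate 2, GNP1 was called higher in DGY1735 than in DGY1726 (log2 ratio 0.93, adjusted p = 0.0157, against 0.60 and 0.246 with all libraries).

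BAP2, which transports branched-chain amino acids, had the widest range of the 9 permeases tested. It was at 12.3 and 15.5 CPM in DGY1726, 16.4 and 18.5 CPM in DGY1735, 3.55 and 4.37 CPM in DGY1741, and 40.8 and 42.3 CPM in DGY1743. The 2 low libraries rest on 43 and 60 counts, and those of DGY1743 on 428 and 416. BAP2 was 10.4-fold higher in DGY1743 than in DGY1741 (log2 ratio 3.38, SE 0.20, adjusted p = 1.99e-07), 2.99-fold higher than in DGY1726 (adjusted p = 7.08e-05) and 2.38-fold higher than in DGY1735 (adjusted p = 0.000339). In DGY1741 it was 3.49-fold lower than in DGY1726 (adjusted p = 4.4e-05) and 4.39-fold lower than in DGY1735 (adjusted p = 7.64e-06), and these 5 calls held with each library left out. Its near copy BAP3 had 29 to 59 counts per library and did not pass the count minimum. BAP3 was at 2.46 and 4.04 CPM in DGY1726, 3.10 and 3.46 CPM in DGY1735, 3.22 and 4.29 CPM in DGY1741, and 3.14 and 5.09 CPM in DGY1743, and the strains overlapped. With no filter, BAP3 was not called among strains (adjusted p = 0.859), and its log2 ratio of DGY1743 to DGY1741 was 0.11 (SE 0.37).

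TAT1 and TAT2, the low- and high-affinity permeases of tyrosine and tryptophan, were both lowest in DGY1741. TAT1 was at 24.7 and 25.5 CPM in DGY1726, 29.1 and 26.9 CPM in DGY1735, 17.7 and 16.2 CPM in DGY1741, and 22.5 and 25.0 CPM in DGY1743. It differed among strains (adjusted p = 0.0125), but not with either DGY1741 library left out (adjusted p = 0.0511 and 0.0893), and spanned a narrower range than its neighbour BAP2. TAT1 was 1.65-fold lower in DGY1741 than in DGY1735 (log2 ratio -0.72, SE 0.15, adjusted p = 0.00315), a call held in every leave-out. The call against DGY1726 (1.48-fold, adjusted p = 0.0132) was lost without DGY1726 replicate 2 or DGY1741 replicate 2 (adjusted p = 0.0721 and 0.0719), and that against DGY1743 (1.40-fold, adjusted p = 0.0424) without any 1 library, with no count filter (adjusted p = 0.0513) and in the fit of the 4 libraries of the pair (adjusted p = 0.0815).

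TAT2 was at 38.6 and 25.9 CPM in DGY1726, 29.9 and 23.8 CPM in DGY1735, 14.1 and 11.8 CPM in DGY1741, and 19.6 and 19.9 CPM in DGY1743. The libraries of DGY1726 and DGY1735 overlapped and lay above those of DGY1743, which lay above those of DGY1741. TAT2 was 2.50-fold lower in DGY1741 than in DGY1726 (log2 ratio -1.32 with an SE of 0.21, adjusted p = 0.000468) and 2.07-fold lower than in DGY1735 (adjusted p = 0.00229). It was the single permease called lower in DGY1743 than in DGY1726 (1.63-fold, adjusted p = 0.0253), and this call was lost without DGY1726 replicate 1 (log2 ratio -0.39, adjusted p = 0.251) or either library of DGY1743. TAT2 in DGY1743 against DGY1741 just missed the threshold (adjusted p = 0.0627) and passed it by DESeq2 (adjusted p = 0.0399) and in the fit of the 4 libraries of that pair (adjusted p = 0.0313).

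CAN1, the arginine permease, was at 323 and 335 CPM in DGY1726, 240 and 332 CPM in DGY1735, 199 and 225 CPM in DGY1741, and 445 and 301 CPM in DGY1743. The DGY1741 libraries were the lowest and the other 3 strains overlapped. CAN1 differed among strains (adjusted p = 0.0168), a call lost without either DGY1741 library (adjusted p = 0.136 and 0.0673). It was 1.76-fold higher in DGY1743 than in DGY1741 (log2 ratio 0.82, SE 0.18, adjusted p = 0.00729), which fell to 0.51 on the log2 scale without DGY1743 replicate 1 (adjusted p = 0.0714) and also lost its call without DGY1741 replicate 1 (adjusted p = 0.091). The 1.55-fold lower level in DGY1741 than in DGY1726 (adjusted p = 0.0175) lost its call in 3 leave-outs (adjusted p up to 0.150).

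**Figure D2:**
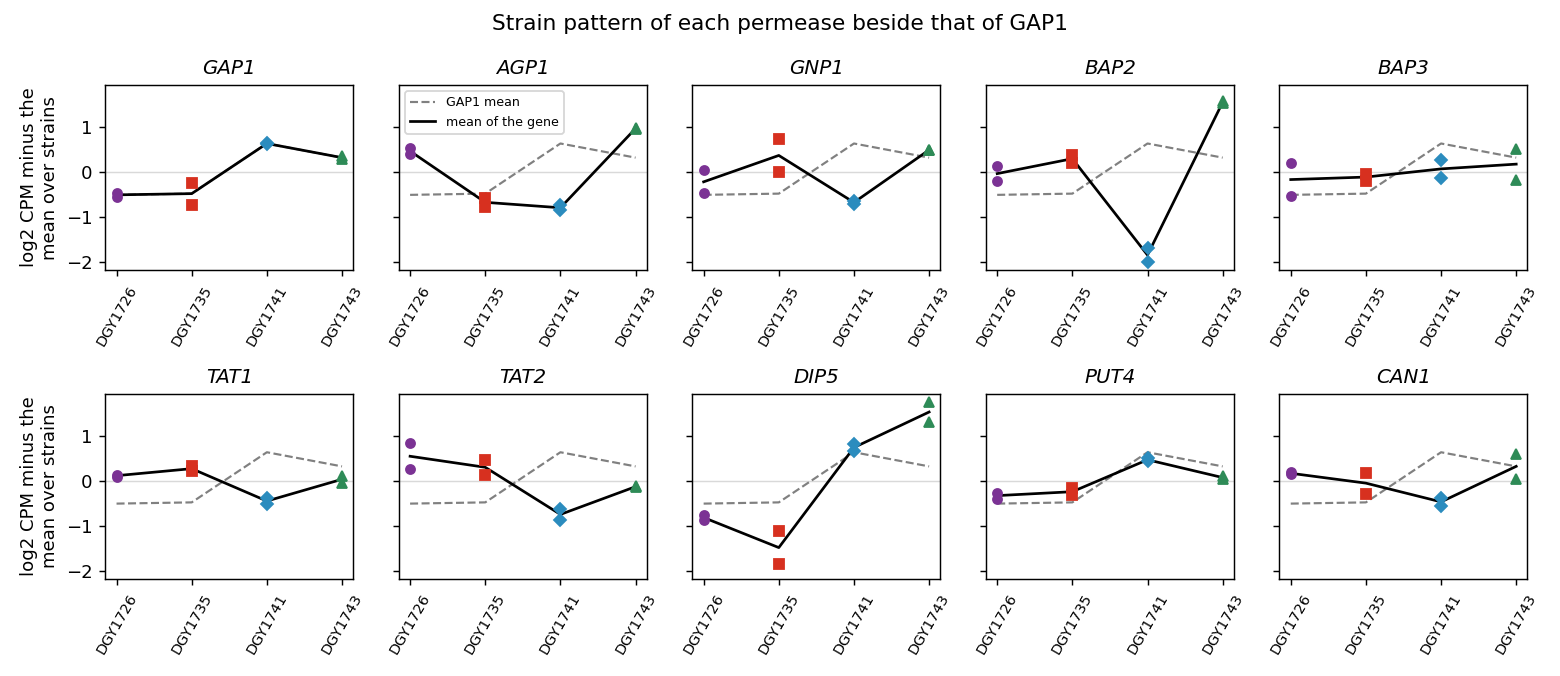
Strain pattern of each permease, as log2 CPM minus the mean of the gene over the 4 strains. Points are libraries, solid lines join the strain means of the gene, and the dashed line repeats the means of GAP1. The means of PUT4 run close to those of GAP1, whereas BAP2 is lowest in DGY1741 and highest in DGY1743.

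Counted over pairs of strains, 32 of 54 permease contrasts were called, and 22 of these held with each of the 8 libraries left out. Among all genes tested, from 2.46% (DGY1735 against DGY1726) to 38.4% (DGY1741 against DGY1726) were called in a pair. How many contrasts of all genes held in every leave-out was not computed. In DGY1741 against DGY1726, 3 permeases were higher (GAP1, DIP5, PUT4) and 5 lower (AGP1, BAP2, TAT1, TAT2, CAN1), while 18.9% of all genes tested were higher and 19.5% lower. The median log2 ratio was -0.56 over the 9 permeases and -0.01 over all genes tested. In DGY1741 against DGY1735, the same 3 were higher and 4 were lower (GNP1, BAP2, TAT1, TAT2), beside 18.2% of all genes higher and 17.8% lower.

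In DGY1743 against DGY1741, 6 permeases were higher (AGP1, GNP1, BAP2, TAT1, DIP5, CAN1) and 0 lower (edgeR), where 13.6% of all genes were higher and 9.44% lower. At an unadjusted p under 0.05, 7 were higher and 1 lower (PUT4), and by DESeq2 the counts were also 7 and 1. Against DGY1726, 5 were higher (GAP1, AGP1, GNP1, BAP2, DIP5) and 1 lower (TAT2), beside 15% and 13.3% of all genes. Against DGY1735, 4 were higher (GAP1, AGP1, BAP2, DIP5) and 0 lower, beside 13.2% and 10.8% of all genes. With no adjustment, or by DESeq2, PUT4 made 5 higher and the count of lower permeases stayed at 0. Between DGY1735 and DGY1726, 0 permeases were higher and 1 lower (1 and 2 without DGY1735 replicate 2), beside 0.959% and 1.5% of all genes, while 1 was higher (GNP1) and 2 lower (AGP1, DIP5) at an unadjusted p under 0.05, and 0 and 2 by DESeq2. Single libraries moved some of these counts. The 5 higher in DGY1743 than in DGY1726 came to 2 or 3 without DGY1726 replicate 2 or either DGY1741 library, and the 1 lower to 0 without DGY1726 replicate 1 or either DGY1743 library. The 6 higher in DGY1743 than in DGY1741 came to 3 without DGY1741 replicate 1 or DGY1743 replicate 1, and the 5 lower in DGY1741 than in DGY1726 to 3 without DGY1741 replicate 2. Each of the 9 permeases tested was called among the 4 strains, as were 47.3% of all genes tested. Without both libraries of DGY1743, an alternative chosen after seeing the data, each of the 9 was called among the other 3 strains. The share of all genes called in that fit is not given here. In the fit of all 8 libraries, 38.4% of all genes tested were called between DGY1741 and DGY1726.

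Whether a relative kept its ratio to GAP1 was then asked directly. The number of GAP1 counts per PUT4 count was 6.83 and 6.58 in DGY1726, 5.74 and 7.20 in DGY1735, 8.35 and 8.69 in DGY1741, and 9.34 and 8.69 in DGY1743. This was the narrowest range of the 9 ratios, although the libraries of DGY1741 and DGY1743 lay above the other 4. For AGP1, GNP1, BAP2, TAT1, TAT2 and CAN1 both libraries of DGY1741 held more GAP1 counts per count of the relative than the other 6. GAP1 itself was highest in both, so a gene of unchanged level would show the same. The share of all genes that did so was not computed. The ratio to BAP2 was 5546 and 6882 in DGY1741 and 453 to 872 elsewhere. For DIP5 the ratio ran the other way, at 24.6 and 27.1 in DGY1741, 10.5 and 13.7 in DGY1743, and 32.5 to 61.1 in DGY1726 and DGY1735.

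**Figure D3:**
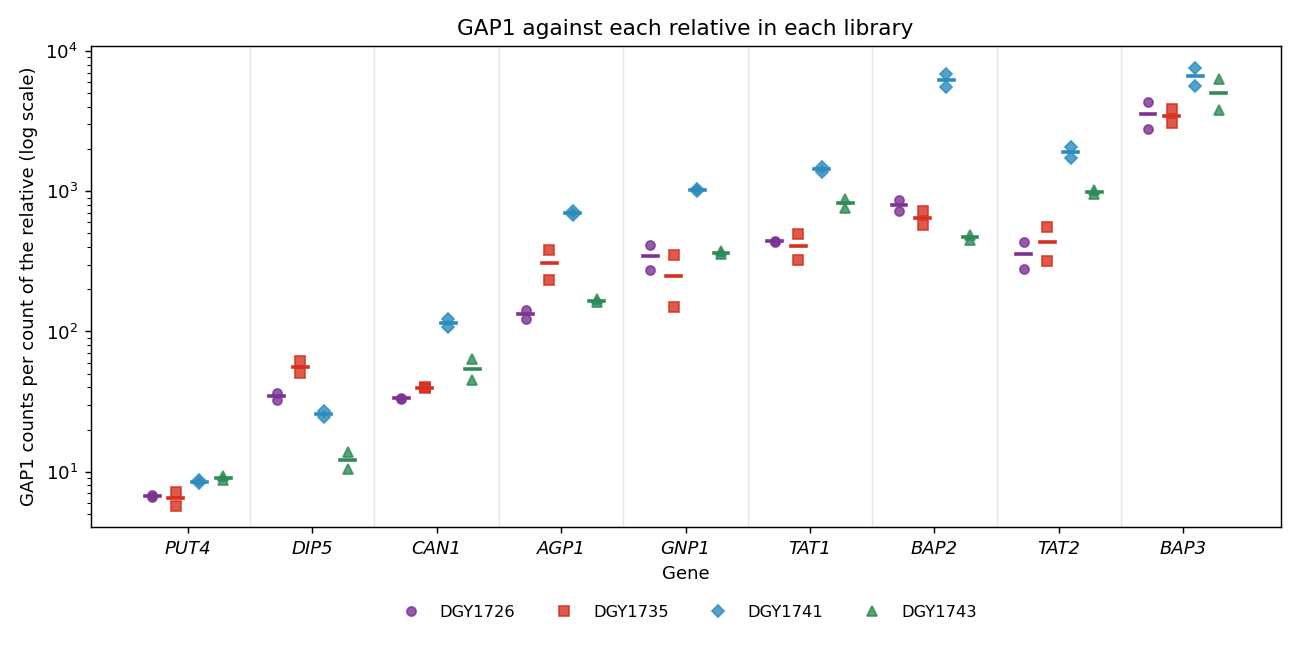
GAP1 counts per count of each of the 9 relatives in each library (log axis), ordered by their median. Points are libraries, 2 per strain, and short bars are strain means. The ratio to PUT4 stays between 5.74 and 9.34, whereas that to BAP2 runs from 453 to 6882.

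In a fit with the GAP1 count as the offset, the ratio to GAP1 differed among strains for 7 of the 8 relatives tested and for 95.4% of all genes, so that the share of relatives is no higher than the background. PUT4 was the relative not called (edgeR adjusted p = 0.213), except without DGY1735 replicate 1 or 2 (adjusted p = 0.0399 and 0.00381). Since the error of GAP1 enters every ratio, the p-values of this fit are too small. With the spread of each gene taken alone, an alternative chosen after seeing the data, 7 of the 8 and 79.3% of all genes were called, GNP1 was not (adjusted p = 0.0558) and PUT4 was at the threshold (adjusted p = 0.0485). An exact permutation test of each log2 ratio over the 2520 arrangements of the 8 libraries, two-sided and not adjusted over the 9 ratios computed, gave p = 0.00952 for AGP1, BAP2, DIP5 and CAN1, which is the smallest it can give. The same exact test gave p = 0.019 for TAT2, 0.0286 for TAT1, 0.0667 for PUT4, 0.0762 for GNP1 and 0.267 for BAP3.

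Levels were compared between genes per kilobase of gene length. GAP1 stood at 6086 ± 220 CPM per kb in DGY1726, 6290 ± 1494 in DGY1735, 13437 ± 77 in DGY1741 and 10805 ± 296 in DGY1743 (SD, n = 2). By this measure it stood at rank 3 to 9 of the 5527 genes tested, depending on the strain. GAP1 held 81.2% to 86.2% of the CPM per kb summed over the 10 permeases in each library. PUT4 was the next, at 872 ± 55 in DGY1726, 927 ± 74 in DGY1735, 1516 ± 52 in DGY1741 and 1151 ± 27 in DGY1743 (CPM per kb), at ranks 62 to 122.

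DIP5 and CAN1 followed, and their order depended on the strain. In DGY1741 DIP5 was at 516 ± 39 and CAN1 at 120 ± 10 CPM per kb, and in DGY1743 at 902 ± 193 and 210 ± 57. In DGY1726 they were at 175 ± 8 and 186 ± 4, and in DGY1735 at 114 ± 41 and 161 ± 37, where their libraries overlapped. AGP1 (18.3 to 62.0 CPM per kb), GNP1, BAP2, TAT1 and TAT2 ranked below the middle of the genes tested in each strain, the highest of them being AGP1 in DGY1743 at rank 3057 of 5527. BAP2 in DGY1741, at 2.16 ± 0.32 CPM per kb, ranked 5525 of 5527. BAP3 was at 1.79 to 2.27 CPM per kb, and in DGY1741, at 2.07 ± 0.42, it differed from BAP2 by less than the spread between replicates.

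Genes were ranked by how closely their strain pattern followed that of GAP1, as the root mean square difference of the 4 centred strain means of log2 CPM. Over these 4 points, the nearest genes among those called were DBF2, a kinase of mitotic exit (0.033, chromosome VII), ISC1, an inositol phosphosphingolipid phospholipase (0.043, chromosome V), YPR174C (0.046, chromosome XVI), ALG14, of protein N-glycosylation (0.048, chromosome II), and ERG6, of ergosterol synthesis (0.057, chromosome XIII). None lies on chromosome XI, and the likeness rests on 4 strain means. DBF2, for example, was at 111 and 94.9 CPM in DGY1726, 97.4 and 98.5 in DGY1735, 238 and 204 in DGY1741, and 183 and 169 in DGY1743. Among the permeases PUT4 was closest to GAP1, at 0.211 and rank 174 of 5526 genes, against a median of 0.521 over all genes. The other relatives tested lay at 0.682 to 1.46, at ranks 4472 to 5444.

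Of 10 other amino acid transporters of the plasma membrane, 9 were called among strains, beside 47.3% of all genes tested. In DGY1743 against DGY1741, 7 were higher and 0 lower, where 13.6% of all genes were higher and 9.44% lower, and the median log2 ratio was 0.81 (-0.01 over all genes tested). The counts stood at 7 and 0 also at an unadjusted p under 0.05 and by DESeq2. MUP1, the high-affinity methionine permease, was at 155 and 154 CPM in DGY1726, 189 and 156 in DGY1735, 107 and 95.3 in DGY1741, and 467 and 524 in DGY1743, and was 4.91-fold higher in DGY1743 than in DGY1741 (log2 ratio 2.30, SE 0.13, adjusted p = 1.16e-07). AGP3, a low-affinity permease, was 4.18-fold higher in the same pair (adjusted p = 1.94e-07), at 213 and 231 against 56.6 and 49.8 CPM. SAM3, which imports S-adenosylmethionine, was at 519 and 643 CPM in DGY1743 and at 176 to 207 in the other 6 libraries, 3.10-fold higher than in DGY1735 (adjusted p = 2.81e-06). Without DGY1743, SAM3 was not called among the other 3 strains (adjusted p = 0.618). MMP1, the S-methylmethionine permease, was 2.75-fold higher in DGY1743 than in DGY1726 (adjusted p = 3.28e-05).

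**Figure D4:**
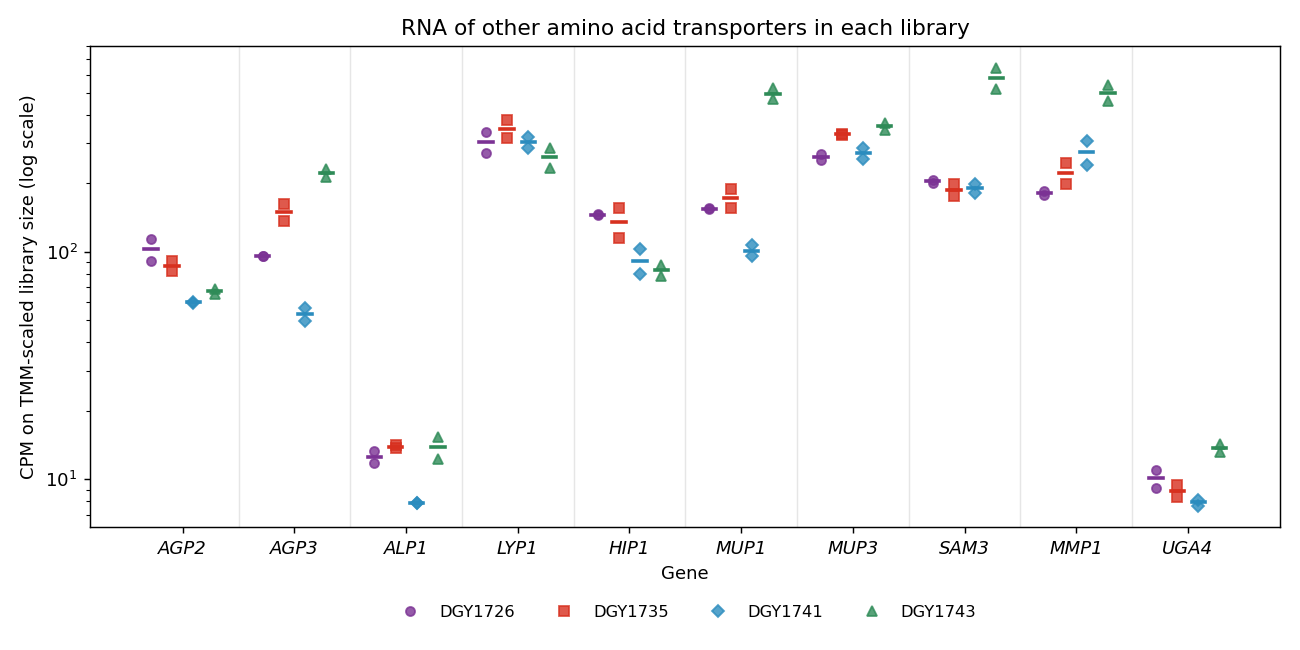
RNA of 10 other amino acid transporters in each library, in CPM on TMM-scaled library sizes (log axis). Points are libraries, 2 per strain, and short bars are strain means. MUP1 and SAM3 lie between 467 and 643 CPM in DGY1743 and between 95.3 and 207 CPM in the other 3 strains.

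In DGY1741 against DGY1726, the same list had 1 gene higher (MMP1, a call lost without DGY1741 replicate 1, adjusted p = 0.109) and 5 lower, where 18.9% of all genes were higher and 19.5% lower, and its median log2 ratio was -0.48. The 9 permeases tested had a median log2 ratio of 0.80 for DGY1743 against DGY1741, with members on both sides of 0. The list and its members were chosen with earlier results of these data known.

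Regulators of the permeases were counted in the same way. Of 14 genes of the amino acid sensing pathway, 5 were called among strains, none with a called difference of 2-fold, and of 5 genes for the nitrogen GATA factors and Ure2, 2 were called. These shares of small lists, 35.7% and 40%, stand beside 47.3% of all genes tested, and the difference was not tested. DAL80, a GATA repressor that lies in the amplified core of chromosome XI, was at 920 and 878 CPM in DGY1726, 746 and 978 in DGY1735, 1018 and 968 in DGY1741, and 1544 and 1179 in DGY1743. It was 1.58-fold higher in DGY1743 than in DGY1735 (adjusted p = 0.0129), a call lost without DGY1735 replicate 1 or DGY1743 replicate 1 (adjusted p = 0.104 and 0.0866). Of 17 genes for folding, sorting and turnover of permeases, 10 were called among strains, a share not far from that 47.3%. In DGY1741 against DGY1726, 4 of them were higher and 5 lower, where 18.9% and 19.5% of all genes were, and the median log2 ratio was -0.02.

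From the turnover list, 2 genes differed by at least 2-fold and both lie on chromosome XI, in segments that the study describes as amplified in some of the strains. ALY1, an adaptor of the ubiquitin ligase Rsp5, was at 358 and 415 CPM in DGY1726, 390 and 423 in DGY1735, 139 and 159 in DGY1741, and 372 and 456 in DGY1743, and was 2.78-fold higher in DGY1743 than in DGY1741 (adjusted p = 6.7e-06). The study places the breakpoint of the DGY1735 rearrangement in this gene. MEH1, a subunit of the vacuolar EGO complex, was at 72.2 and 57.4 CPM in DGY1726, 73.5 and 75.0 in DGY1735, 90.1 and 89.1 in DGY1741, and 277 and 237 in DGY1743. It was 3.96-fold higher in DGY1743 than in DGY1726 (log2 ratio 1.99, SE 0.13, adjusted p = 6.61e-07). For these genes copy number and regulation were not separated here, since copy numbers were not used, and the same holds for GAP1. The study resolved the copy number of each gene. It reported GAP1 RNA below the level expected from copy number in every evolved strain, with significance in DGY1726 and DGY1735.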

How the data were processed

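The authors sequenced RNA of 4 evolved yeast strains, 2 biological replicate cultures each, as single reads of 50 bases. The sample titles gave strain and replicate number. The deposited values are raw read counts per annotated feature. The authors removed known rRNA, tRNA and snRNA, aligned the remainder with STAR and used bedtools to count overlaps on the same strand with features of the Ensembl R64-1-1 annotation, without normalizing them. The handling of multi-mapping reads is not given in the sources used here. Per the labels the RNA was polyadenylated, but the methods describe no such selection.

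Protein-coding genes averaging 100 counts or more per library (5527 of 6600) entered edgeR 4.0.16 (R 4.3.3, TMM scaling). Its quasi-likelihood F-test was run on all 8 libraries with strain as the term, for the 4 strains at once and for the 6 pairs, with Benjamini-Hochberg (BH) adjusted p-values over all genes tested and a threshold of 0.05. A log2 ratio is that of the first-named strain to the second, and dividing its size by the root of F gave the SE. The ratio to GAP1 was tested with the log GAP1 count as the offset. Its limits showed when the code was tested on simulated data, and a fit without shared spread and an exact permutation test were added after seeing the data. CPM per kb serves for levels between genes only. Named are the 10 permeases, list genes with a called difference of at least 2-fold and DAL80, and the 5 genes most like GAP1. The members and lists were chosen with earlier results of these data known. Libraries held 9125509 to 13205947 protein-coding counts, and replicates differed by 16.1 to 55.8 in chi-square per degree of freedom, so that no library was counted again and precision is set by the 2 cultures per strain. Chromosome lengths (17 of 17) and the coordinates of the 10 permeases were equal in the deposited tables and the R64 RefSeq reference, from which sequences were read. Alternatives were RLE factors, DESeq2 1.42.0, limma 3.58.1 (for ratios to GAP1), other filters, coding rows, libraries left out, the pair's own libraries, a replicate block and a threshold of 0.01.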

Additional observations from a re-analysis of the deposited data

How the results depend on the processing

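The counts of permeases and genes called kept within 1.5 times of those reported under RLE factors, filterByExpr, no filter, coding rows, library sizes without mitochondrial genes and the replicate block. The deviations of same-numbered cultures correlated at 0.21 to 0.40 in the 3 pairs of strains with DGY1726 and at -0.25 to 0.06 in the other 3, so not in every pair, and the numbers were not taken as pairing. The replicate block gave 2816 genes among strains and changed 1 of 54 permease calls, TAT2 in DGY1743 against DGY1741 (log2 ratio 0.62, adjusted p = 0.0274). At an adjusted p under 0.01, 1603 genes differed among strains. Higher and lower genes were then 23 and 45 for DGY1735 against DGY1726, 648 and 644 for DGY1741 against DGY1726, 452 and 340 for DGY1743 against DGY1726, 659 and 584 for DGY1741 against DGY1735, 423 and 231 for DGY1743 against DGY1735, and 492 and 229 for DGY1743 against DGY1741. Lower permeases in DGY1741 against DGY1726 came to 3, and in DGY1743 against DGY1726 the higher came to 3 and the lower to 0. DESeq2 called 89 genes higher and 142 lower in DGY1735 against DGY1726, 2 permeases lower in that pair and 1 lower in DGY1743 against DGY1741. With the 4 libraries of the pair, 356 genes were lower in DGY1743 against DGY1735. With library sizes without mitochondrial genes, GAP1 stood at 6348 CPM per kb in DGY1726, 14090 in DGY1741 and 11331 in DGY1743. These were 6086, 13437 and 10805 in the main fit, so that each rose, by more than 1 SD of the replicates. The rise was not particular to GAP1. PUT4 went from 1516 to 1589 CPM per kb in DGY1741 and from 1151 to 1207 in DGY1743. All 81 log2 ratios followed for the permeases and named list genes kept their sign and call under that setting. The cause of these moves was not tested.

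With 1 library left out, a lone library is assumed to vary like the others. Genes called among strains ranged from 1732 to 2619. Higher and lower genes ranged from 27 to 62 and 46 to 103 for DGY1735 against DGY1726, 590 to 1129 and 582 to 1131 for DGY1741 against DGY1726, 505 to 844 and 382 to 801 for DGY1743 against DGY1726, 641 to 1074 and 570 to 1023 for DGY1741 against DGY1735, 467 to 727 and 267 to 616 for DGY1743 against DGY1735, and 484 to 774 and 213 to 545 for DGY1743 against DGY1741. Permeases ranged from 0 to 1 higher and 1 to 2 lower for DGY1735 against DGY1726, 3 to 6 lower for DGY1741 against DGY1726, 2 to 5 higher and 0 to 1 lower for DGY1743 against DGY1726, and 3 to 6 higher for DGY1743 against DGY1741. Of the log2 ratios of permeases, 5 changed sign with 1 library left out, and none of them was called with all 8 libraries. For DGY1735 against DGY1726 they ranged from -0.22 (without DGY1735 replicate 2) to 0.27 for GAP1, from -0.52 to 0.045 (without DGY1726 replicate 1) for TAT2, and from -0.45 to 0.013 (without DGY1735 replicate 1) for CAN1. GNP1 in DGY1743 against DGY1735 ranged from -0.25 (without DGY1735 replicate 2) to 0.49, and CAN1 in DGY1743 against DGY1726 from -0.13 (without DGY1743 replicate 1) to 0.44.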

Other observations

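Among the genes that handle permeases, SHR3 and STP2 are singled out here after their values were seen, since neither reached a called difference of 2-fold. SHR3, whose product is the chaperone that lets Gap1 and its relatives leave the endoplasmic reticulum, was at 171 and 187 CPM in DGY1726, 202 and 204 in DGY1735, 324 and 285 in DGY1741, and 228 and 276 in DGY1743. The 4 libraries of DGY1741 and DGY1743 lay above the other 4, and DGY1741 was 1.70-fold above DGY1726 (log2 ratio 0.77, SE 0.12, edgeR adjusted p = 0.00044). How many of all genes had their libraries so separated was not computed. Of the 17 genes in the list that holds SHR3, 4 were called higher and 5 lower in DGY1741 than in DGY1726. STP2, one of the factors that act downstream of the amino acid sensor, was at 289 and 234 CPM in DGY1726, 250 and 258 in DGY1735, 438 and 390 in DGY1741, and 389 and 344 in DGY1743. It was 1.63-fold higher in DGY1741 than in DGY1735 (edgeR adjusted p = 0.00109), while BAP2, one of the genes Stp2 is known to activate, was 4.39-fold lower in that pair. Whether RNA of STP2 bears on the level of BAP2 was not tested.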
